A study of Mus musculus with 302 samples.

Results

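Cytochrome P450 genes were followed across the livers of 302 F2 mice. Members were all array probes that carry a single gene symbol made of Cyp and a number, except the probes of Cyp51, Cyp8b1, Cyp4a14, Cyp17a1, Cyp2b10, Cyp2c29, Cyp2c50 and Cyp2c55, which were set aside. This gave 71 of 23562 probes, for 57 of 11644 genes that have a probe with a single symbol. Family 1 had 3 probes, family 2 had 33, family 3 had 9, family 4 had 14, and 12 probes belonged to other families. Of these, 70 probes for 56 genes had values in at least 90% of the mice and were analysed. The exception, Cyp2f2, had no value in 78 mice.

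C57BL/6J and C3H/HeJ mice, both inbred, were crossed in both directions and their F1 offspring intercrossed to give these animals. Chow (4% fat) was fed for the first 8 weeks of life and a Western diet, of which 42% was fat and 0.15% cholesterol, for the next 12 weeks. Livers were collected at 20 weeks, after 12 h without food. All animals share this diet and age, so the labels give a single group with no lean or chow-fed control, and no sex, direction of cross or genotype of a mouse. Each array set the RNA of 1 mouse (Cy3) against a pool of equal shares of all of them (Cy5). Each value is therefore a ratio to the average liver and was read as log10 of mouse over pool, with base and direction likely but not stated. Levels cannot be compared between genes on this scale, and fewer cells of a type cannot be told apart from less RNA per cell.

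Mice with the Y-linked gene Eif2s3y below or above -0.8, and with title numbers up to or above 212, form 4 blocks of 77, 65, 82 and 78 mice. Lower numbers are called early here (159 mice) and higher numbers late (143 mice). Except where stated, the mean of each block was removed, and nothing was tested between the Eif2s3y clusters. Array medians lay between -0.0117 and 0.0174. The lowest correlation between 2 arrays was -0.519, and 1035 of 45451 pairs of arrays lay under -0.3. The dyes are stated and the same on every array, so the direction was kept. With the ratio turned, lowest and highest values and lower and upper states would change places and the differences between number ranges would change sign, whereas correlations and slopes between genes would not.

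Cytochrome P450s are haem enzymes that insert oxygen into small molecules with electrons from a reductase or a ferredoxin. In liver, families 1 to 3 clear drugs, pollutants and steroids, family 4 oxidises fatty acids and eicosanoids, and other families make or break down bile acids, sterols, retinoids and vitamin D. Nuclear receptors and the Ah receptor are known to set the transcription of many of them, and several subfamilies lie in runs of similar neighbouring genes.

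Promoters are shown for genes on which the results below turn. They cover 250 bases before to 50 bases after the start, come from RefSeq (GRCm38.p6) and are given 5′ to 3′ on the strand of the gene. Cyp1a1 (chr9:57697363-57697662, plus strand) had the highest single value of all members in the direction read here. Capitals mark GCGTG, the core bound by the Ah receptor.
Cyp1a1: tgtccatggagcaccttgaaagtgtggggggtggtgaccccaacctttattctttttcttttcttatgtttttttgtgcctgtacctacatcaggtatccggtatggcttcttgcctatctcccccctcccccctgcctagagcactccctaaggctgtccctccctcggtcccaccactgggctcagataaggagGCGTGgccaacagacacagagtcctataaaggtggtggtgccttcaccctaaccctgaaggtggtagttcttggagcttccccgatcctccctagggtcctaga
Cyp2b9 (chr7:26173159-26173458, plus strand) and Cyp2b13 (chr7:26061245-26061544, plus strand) followed each other closely. Their promoters were the same at 298 of 300 bases, and capitals mark the 2 positions that differ.
Cyp2b9: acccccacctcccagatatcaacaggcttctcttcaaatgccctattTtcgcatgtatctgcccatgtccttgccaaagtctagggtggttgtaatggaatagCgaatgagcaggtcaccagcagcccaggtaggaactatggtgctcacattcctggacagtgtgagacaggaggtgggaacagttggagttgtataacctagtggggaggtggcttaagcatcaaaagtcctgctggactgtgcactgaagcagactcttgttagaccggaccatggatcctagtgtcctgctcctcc
Cyp2b13: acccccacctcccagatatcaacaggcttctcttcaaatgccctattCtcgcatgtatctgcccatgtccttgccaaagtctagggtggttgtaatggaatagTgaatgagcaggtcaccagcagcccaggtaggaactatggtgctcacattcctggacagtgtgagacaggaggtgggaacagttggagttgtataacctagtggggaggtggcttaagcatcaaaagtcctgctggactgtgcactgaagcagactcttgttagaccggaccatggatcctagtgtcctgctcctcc
Cyp3a11 (chr5:145879805-145880104, minus strand) and Cyp3a41a (chr5:145720087-145720386, minus strand) also moved together. In a global alignment 229 of 320 columns were identical, and capitals mark TGTTTAC, a motif of the FOXA factors of hepatocytes.
Cyp3a11: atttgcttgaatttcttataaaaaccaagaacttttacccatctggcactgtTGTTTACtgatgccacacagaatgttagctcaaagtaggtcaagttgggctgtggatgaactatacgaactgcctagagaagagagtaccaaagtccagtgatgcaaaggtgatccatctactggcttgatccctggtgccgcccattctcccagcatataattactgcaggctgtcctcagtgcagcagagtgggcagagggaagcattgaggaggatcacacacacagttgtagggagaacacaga
Cyp3a41a: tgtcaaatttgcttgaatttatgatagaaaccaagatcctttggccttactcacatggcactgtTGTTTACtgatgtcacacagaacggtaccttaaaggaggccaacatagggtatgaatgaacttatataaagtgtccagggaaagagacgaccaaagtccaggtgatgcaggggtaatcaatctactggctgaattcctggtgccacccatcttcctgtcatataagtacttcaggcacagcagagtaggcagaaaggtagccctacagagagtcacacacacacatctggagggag
Of the member genes, 40 had a promoter in the table, with 47 promoters in all. On either strand TGTTTAC was found in 7 of these 47 promoters and in 3.65% of all 32851 promoters. The 6 genes were Cyp2c38, Cyp2c39, Cyp2j5, Cyp3a11, Cyp3a16 and Cyp3a41a. GCGTG was found in 10 of the 47 and in 32.4% of all, and TTCNNNGAA, the site of STAT5, in 4 of the 47 and in 8.30% of all. The 3 motifs share no common core, and a match describes letters and not binding.

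P450 genes differed more among these livers than most genes did. A probe was taken to vary widely when the lower end of the 95% interval of its SD lay above 0.123, which is 2 times the median SD of all probes (0.0616) and corresponds to 1.33-fold. By this rule 27 of 70 member probes varied widely, against 6.55% of all probes tested. The genes were 2 of 3 in family 1, 11 of 25 in family 2, 5 of 5 in family 3, 1 of 12 in family 4 and 5 of 11 in other families. The median SD was 0.234 in family 1, 0.112 in family 2, 0.196 in family 3, 0.0675 in family 4 and 0.0880 in the others. Family 4 thus lay near the median of all probes, with most of its members within a narrow range. Just inside the threshold was Cyp2c38, whose interval began at 0.139, and just outside was Cyp4f14, whose interval began at 0.118.

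**Figure D1:**
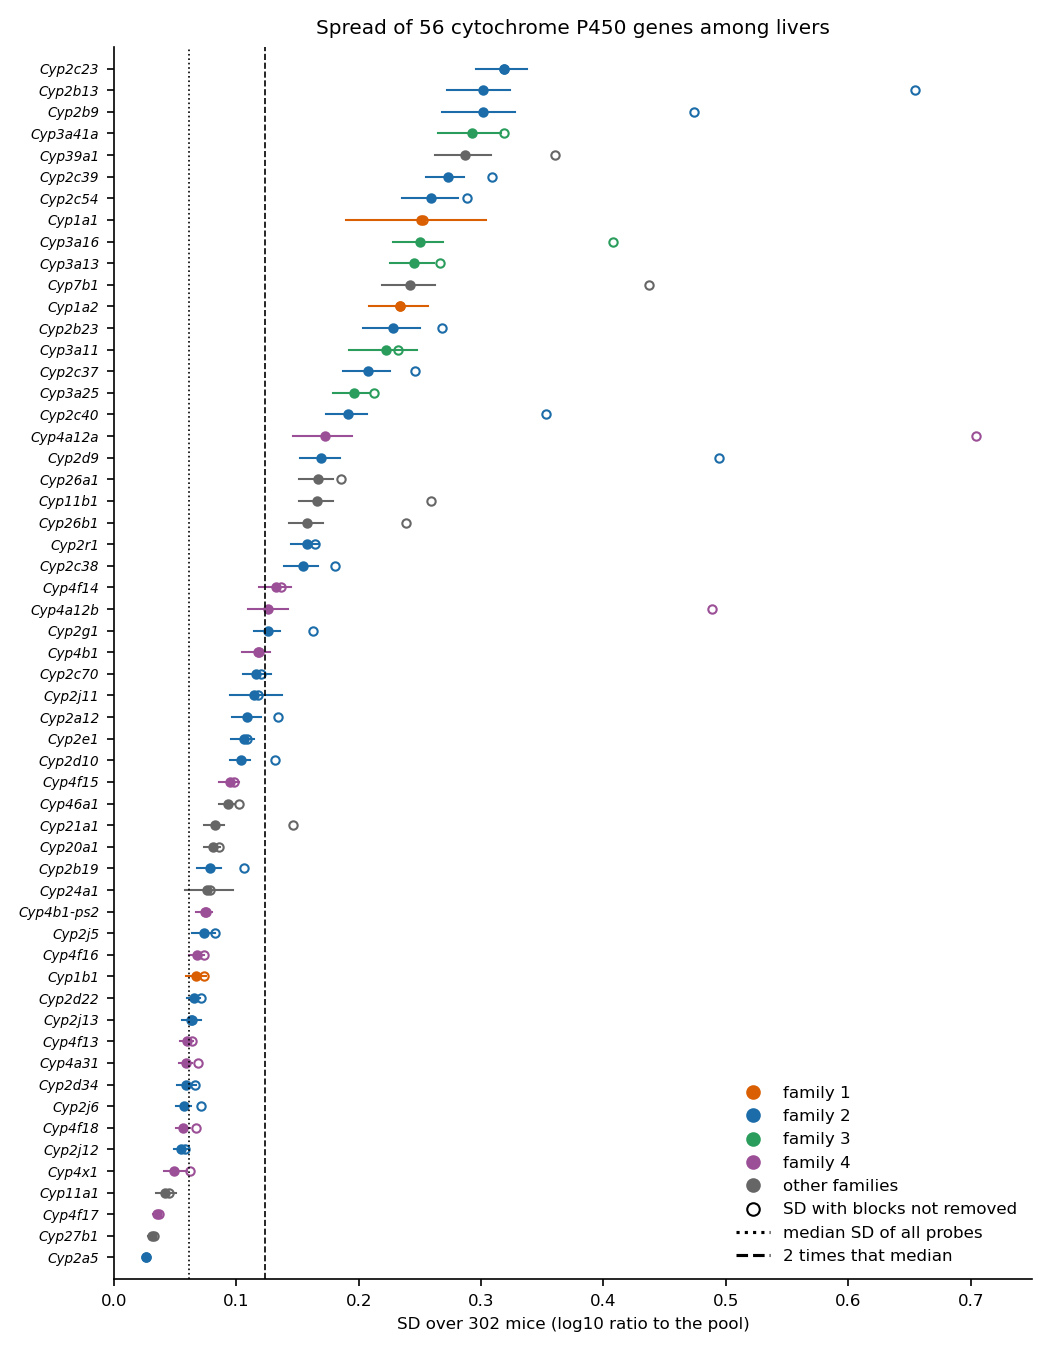
SD over 302 mice of the log10 ratio to the pool for 56 P450 genes, with block means removed (filled points, bars are 95% intervals) and with them kept (open points), coloured by family. The filled points run from 0.0262 for Cyp2a5 to 0.319 for Cyp2c23, and the open points of Cyp4a12a, Cyp4a12b, Cyp2b13 and Cyp2d9 lie far to the right of their filled ones.

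In family 1, the targets of the Ah receptor, Cyp1a1 and Cyp1a2 varied and Cyp1b1 hardly did. Cyp1a1, which oxidises aromatic hydrocarbons, had a lowest value of -0.598, a median of -0.250 and a highest value of 1.35, with an SD of 0.251. Its median lies below the pool while its upper tail is long. In 6 mice it exceeded the median of all mice by over 10-fold (block means removed), and the highest mouse did so by 38.8-fold. Cyp1a2, the main hepatic enzyme for aromatic amines and caffeine, ran from -0.749 through a median of -0.0894 to 0.830, with an SD of 0.234. No mouse reached 10 times its median. Cyp1b1, which works mostly outside the liver, had an SD of 0.0672.

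In family 2, the largest family, Cyp2c23 had the widest spread of all members. This epoxygenase of arachidonic acid ran from -0.906 through -0.0300 to 0.602, its SD was 0.319 (95% interval 0.296 to 0.337), and the span from its 5th to its 95th percentile was 10.1-fold. Cyp2b13 ran from -1.92 through -0.331 to 0.596, and its SD was 0.302 once the blocks were removed. Cyp2b9 ran from -1.72 through -0.0634 to 0.336, also with an SD of 0.302. Cyp2c39, a retinoic acid hydroxylase, ran from -0.826 through -0.0682 to 0.521, with an SD of 0.273. At the other end stood Cyp2a5, the coumarin hydroxylase, with an SD of 0.0262 (0.0236 to 0.0284), among the least variable 1.56% of probes. Cyp2e1, the ethanol-oxidising enzyme, lay between with 0.106.

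Each gene of family 3, the main drug and steroid oxidases of liver, varied widely by its most variable probe, and 6 of the 9 probes of the family did. Cyp3a41a had an SD of 0.292, Cyp3a16 of 0.250, Cyp3a13 of 0.246 and Cyp3a11 of 0.222. The smallest was that of Cyp3a25, 0.196. Cyp3a11 ran from -1.02 through -0.0214 to 0.364, so that its lowest mice lay much farther from the median than its highest. In 18 mice it was over 3-fold below the median, and in 1 mouse over 3-fold above it. Cyp3a41a had 31 mice below and 3 above by that measure.

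In family 4, Cyp4a12a, the fatty acid omega-hydroxylase that makes 20-HETE, led with an SD of 0.172. Cyp4f14 followed with 0.132, Cyp4a12b with 0.126 and Cyp4b1 with 0.117. Cyp4f17 had the smallest SD, 0.0357. Among other families, Cyp39a1 and Cyp7b1, both oxysterol 7α-hydroxylases on routes to bile acids, had SDs of 0.287 and 0.242. Cyp39a1 ran from -1.05 through 0.0138 to 0.728, and Cyp7b1 from -0.851 through -0.263 to 0.894. Cyp26a1, which degrades retinoic acid, had an SD of 0.167. So did the probe named Cyp11b1 (0.166), but the identifier of that probe is not in the mouse gene table, so its name is uncertain. Cyp27b1, the vitamin D 1α-hydroxylase of kidney, had the smallest SD of this group, 0.0309.

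A large part of the total spread of some members lay between the clusters of Eif2s3y. This share was 93.8% of the variance for Cyp4a12a, 93.0% for Cyp4a12b, 86.8% for Cyp2d9 (a steroid hydroxylase), 78.9% for Cyp2b13, 67.7% for Cyp2c40, 67.2% for Cyp7b1 and 60.4% for Cyp3a16. In 15 of 70 member probes it was over 50%, against 0.787% of all probes, and the medians were 10.7% and 1.99%. In family 1 no probe reached 50%, in family 2 it was 8 of 32, in family 3 it was 1 of 9, in family 4 it was 2 of 14 and in the others 4 of 12. Removing the blocks took the SD of Cyp4a12a from 0.704 to 0.172. These shares describe what the removal of the blocks takes away, and no test was made of them.

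After the blocks were removed, 5 members met a rule for separate lower and upper states. A probe was counted when a fit of 2 Gaussian components was better than 1 by over 10 on the Bayesian information criterion, their means were over 3 SDs apart and the smaller held at least 5% of mice. That was met by 5 of 70 member probes and by 2.27% of all probes. The genes were Cyp2c39, Cyp3a11, Cyp2b9, Cyp2c23 and Cyp21a1. Cyp2b9 and Cyp21a1 each have a second probe that did not meet the rule. Its smaller component held 4 mice for Cyp2b9 and 1 mouse for Cyp21a1. In the self-test, a skewed distribution with a single component often met the rule as well, so a call describes the shape of the values and does not by itself show discrete classes.

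Cyp2c39 had the clearest states. Its lower state held 80 mice, 26.5% of them (95% Wilson interval 21.8 to 31.7), at a mean of -0.380, and its upper state 222 mice at 0.142, a 3.33-fold difference. Only 18 mice lay near the midpoint, fewer than the 38 near the lower mean. Cyp2c23 had 78 mice (25.8%, 21.2 to 31.0) in a lower state at -0.423 and 224 at 0.157, which is 3.80-fold. It had hardly any valley, with 35 mice near the midpoint and 37 near the lower mean. Hardly any mouse was low in both genes. A single mouse was in both lower states, 79 were low in Cyp2c39 only, 77 in Cyp2c23 only, and 145 in neither. In shares, 1.25% of the mice low in Cyp2c39 were low in Cyp2c23, and 1.28% of those low in Cyp2c23 were low in Cyp2c39. The median of Cyp2c39 was 0.246 where Cyp2c23 was low, -0.394 where Cyp2c39 itself was low, and 0.0898 where neither was. That of Cyp2c23 was -0.446, 0.270 and 0.0917 in the same 3 sets of mice. Each gene was thus at its highest where the other was low.

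**Figure D2:**
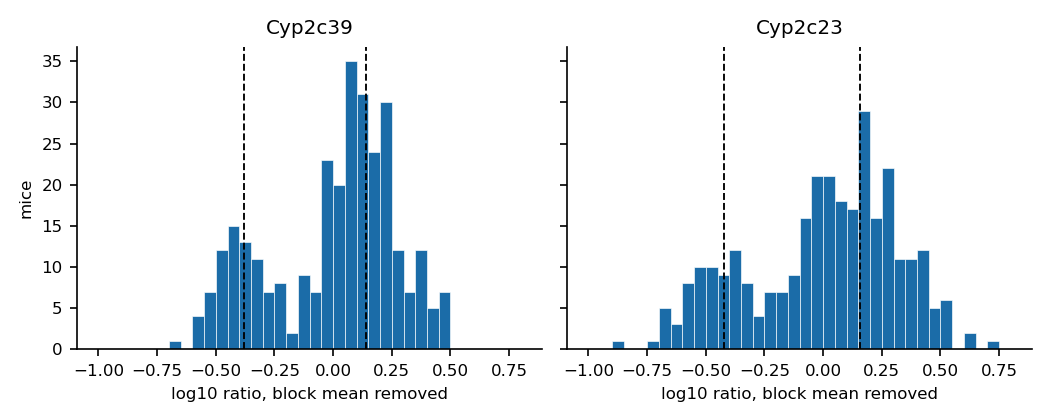
Number of mice by log10 ratio with block means removed, for Cyp2c39 and Cyp2c23, in bins of equal width, with dashed lines at the fitted means of the lower and upper states. Cyp2c39 shows 80 mice around -0.380 and 222 around 0.142 with few between. Cyp2c23 shows 78 around -0.423 and 224 around 0.157 with hardly any dip (35 mice near the midpoint, 37 near the lower mean).

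Within these sets the relation was weak, but the sets were cut by the states of the same 2 genes. That narrows the range of both, so a weak correlation is partly built in. The p below do not measure the relation over all mice. The correlation of the 2 genes was -0.0518 (rho -0.0828) in the 77 mice low in Cyp2c23 only and 0.0291 (rho 0.0128) in the 79 low in Cyp2c39 only, with permutation p of 0.653 and 0.801. In the 145 mice in neither lower state r was -0.207 and rho -0.212, with permutation p of 0.0127 and 0.0109 (adjusted over the 7 such relations computed, 0.0178 and 0.0153), and r was -0.219 without the 2 farthest mice. Low mice were found in every block. The lower state of Cyp2c39 held 35.1%, 20%, 23.2% and 26.9% of the 4 blocks, and that of Cyp2c23 held 23.4%, 29.2%, 23.2% and 28.2%. In early mice alone Cyp2c23 did not meet the rule, with means 2.60 SDs apart, whereas Cyp2c39 met it in both ranges of numbers. With no block removed Cyp2c39 did not meet it (means 2.81 SDs apart) and Cyp2c23 did (3.08). No genotypes were analysed here, and the relation of these states to the parental strains was not tested.

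Cyp3a11 had a small lower state of 33 mice (10.9%, 7.89 to 14.9) at -0.469, 3.37-fold below the upper state at 0.0582. It met the rule in both number ranges. No valley set this state apart, with 26 mice near the midpoint and 12 near the lower mean. Cyp2b9 had 24 mice (7.95%, 5.40 to 11.6) 5.69-fold below the rest, and all 24 lay in the blocks with upper Eif2s3y, 11 of 82 early and 13 of 78 late mice. In those blocks the SD of Cyp2b9 was 0.370 and 0.446, and in the others 0.0699 and 0.0756. Cyp21a1, an adrenal steroid hydroxylase, had a small upper state of 18 mice, all of them in the blocks with lower Eif2s3y, where its SD was 0.105 and 0.127 against 0.0340 and 0.0320 in the others. In late mice alone neither of these last 2 genes met the rule, and their states cannot be told apart from unequal spread among blocks. Mice near the midpoint also outnumbered those near the mean of the smaller state, 19 to 11 for Cyp2b9 and 25 to 9 for Cyp21a1.

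Most P450 genes did not follow each other. Over the 1540 pairs of member genes the median Pearson r was 0.0654, and 56 pairs (3.64%) had r over 0.5, against 1.1% of all pairs of probes. Family 3 stood out in these values, with a median of 0.531 over 10 pairs and 5 of them over 0.5. These 5 were all among Cyp3a16, Cyp3a41a, Cyp3a11 and Cyp3a25, and none involved Cyp3a13. The median was 0.175 in family 1 (3 pairs), 0.0948 in family 2 (300 pairs), 0.0232 in family 4 (66 pairs) and 0.0607 in the others (55 pairs). It was 0.0844 within families 1 to 4 and 0.0569 between families. Genes in a run of neighbours (steps of at most 1 Mb) had r over 0.5 in 16 of 86 pairs. Genes of a family that lie elsewhere had it in 8 of 295, and those of different families in 32 of 1159. Pairs share genes and mice, so these medians are descriptions without a test.

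**Figure D3:**
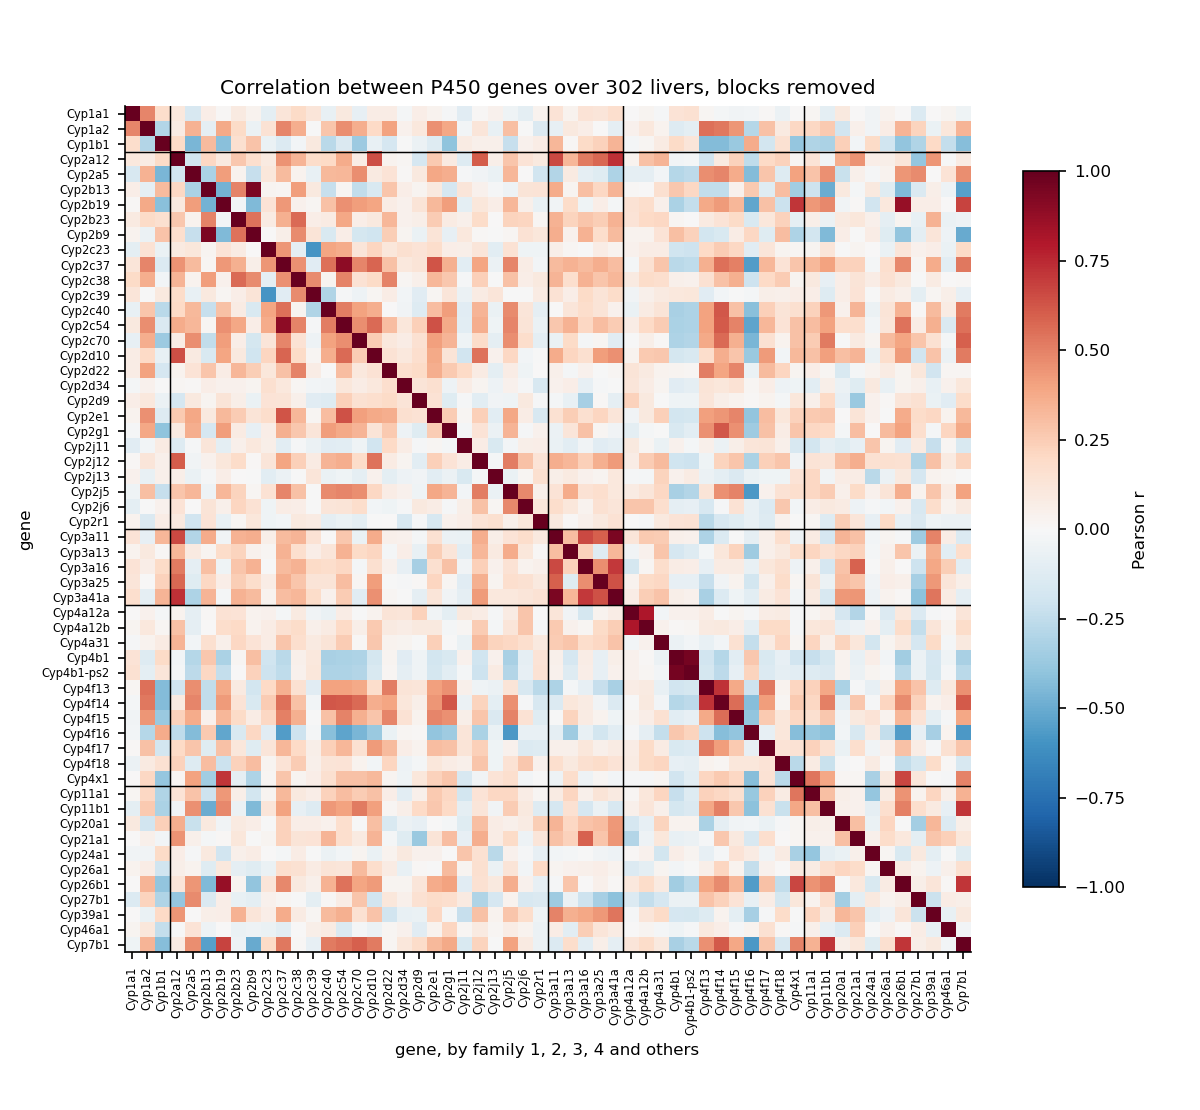
Pearson r between 56 P450 genes over 302 livers with block means removed, in the order of families 1, 2, 3, 4 and others, divided by black lines. In the block of family 3 (median 0.531), the 4 genes Cyp3a16, Cyp3a41a, Cyp3a11 and Cyp3a25 are red together (0.463 to 0.940). The lowest pair of that block, -0.123, lies outside them. Most other cells are pale, and the cell of Cyp2c23 and Cyp2c39 is blue.

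The run of Cyp3a genes was the tightest, with a median r of 0.651 over 4 genes, and 0.627 once the first principal component of all probes was also removed. That component is the main axis along which all probes vary and carries 10.8% of their variance. The run of 6 Cyp2c genes had a median of 0.454, which became 0.0986 without that axis. The Cyp4f run of 5 genes had 0.321 (0.242 without it). The Cyp2d run had 0.158, that of Cyp2b, Cyp2a and Cyp2g genes 0.0936, that of Cyp2j genes 0.0396 and that of Cyp4a, Cyp4b and Cyp4x1 0.0150. Neighbourhood alone thus went with a wide range of values.

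The closest pairs were neighbours of 1 subfamily. Whether a probe reads both transcripts was not tested, since probe sequences were not used, so their agreement is uncertain as a measure of separate genes. Cyp4b1 and the pseudogene Cyp4b1-ps2 had r = 0.960 and rho = 0.956, with 0.921 to 0.975 in the 4 blocks. Cyp3a11 and Cyp3a41a had r = 0.889 (rho 0.857) among the 269 mice in the upper state of Cyp3a11 and 0.925 (rho 0.932) among the 33 in its lower state, each with a permutation p of 1e-05, the smallest the permutations can give. Cyp2b9 and Cyp2b13 had r = 0.898 (rho 0.785) among the 278 mice in the upper state of Cyp2b9 and 0.909 (rho 0.817) among the 24 in its lower state, with the same p. Their r ran from 0.215 to 0.980 in the 4 blocks, so the relation rests mainly on the blocks where both genes vary. All correlations of Cyp3a41a with other genes, also in family 3 and the Cyp3a run, use the most variable of its 3 probes. That probe had an SD of 0.292, against 0.116 and 0.113 for the others, and r between the 3 probes ran from 0.415 to 0.954.

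Cyp2c37 and Cyp2c54 had r = 0.898 and rho = 0.895 (0.806 to 0.967 in the blocks). Cyp4a12a and Cyp4a12b had r = 0.806 and rho = 0.704 (0.652 to 0.942), and Cyp4f13 and Cyp4f14 had r = 0.719 and rho = 0.709 (0.605 to 0.759). In limma's fit across all probes, with the Benjamini-Hochberg adjustment over them, the adjusted p of these 3 pairs was 5.69e-105, 8.46e-66 and 4.33e-45. For the first gene of each, the partner ranked 3, 1 and 2 among all probes by r. All pairs named here were picked by r on these same values. The p of the permutations and of limma do not cover that choice.

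Relations across families were fewer. Cyp26b1, a retinoic acid hydroxylase, and Cyp2b19, an epoxygenase known from skin, had r = 0.874 and rho = 0.867 (0.726 to 0.932 in the blocks, limma adjusted p = 1.21e-92). However, Cyp2b19 ranked only 66 among all probes for Cyp26b1. The relation also rests on the more variable of 2 probes of Cyp2b19, which had r = 0.262 with each other. Cyp2a12 and Cyp3a41a had r = 0.728 and rho = 0.708 (0.670 to 0.788; limma adjusted p = 2.88e-48). Apart from Cyp2c23 with Cyp2c39, the lowest values all involved Cyp4f16. Its r was -0.576 with Cyp2j5 (rho -0.495), -0.574 with Cyp7b1 (rho -0.528) and -0.559 with Cyp2c37 (rho -0.512), with limma adjusted p of 1.43e-25, 3.62e-26 and 3.47e-24. With the first principal component removed these became -0.156, -0.0907 and 0.0476, so they lay mainly along the axis shared by all probes. The second probe of Cyp4f16 did not follow the first (r = -0.107).

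**Figure D4:**
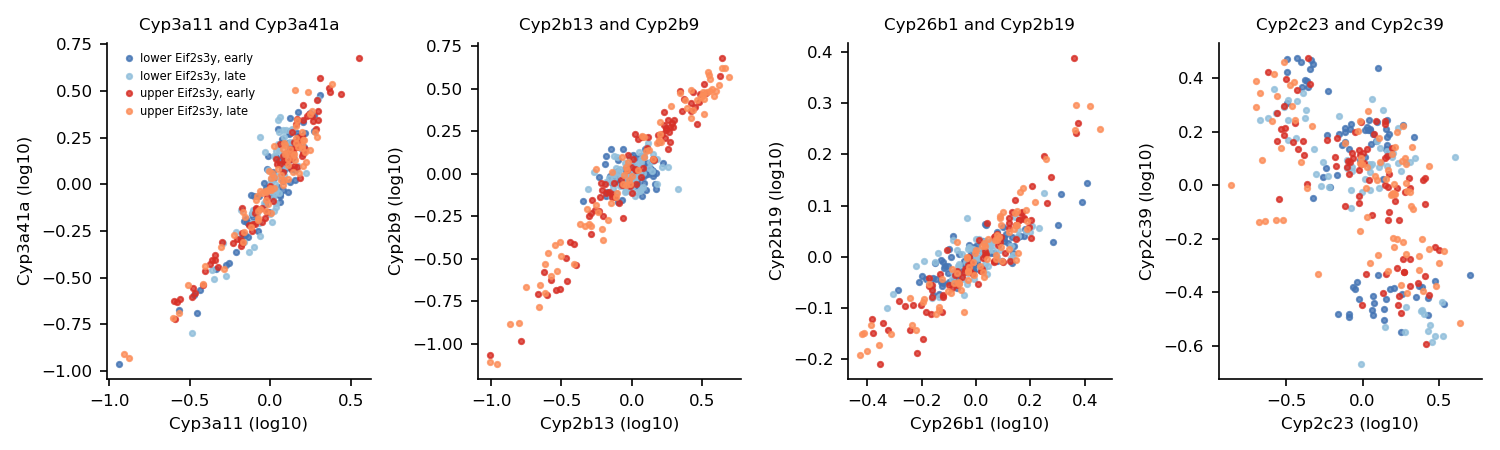
Log10 ratios of 4 pairs of P450 genes in 302 mice with block means removed, coloured by block. Cyp3a11 with Cyp3a41a, Cyp2b13 with Cyp2b9 and Cyp26b1 with Cyp2b19 rise together, with the 2 blocks of lower Eif2s3y bunched near 0 for the second pair, and Cyp2c23 with Cyp2c39 leaves the corner where both are low almost empty.

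Probes of the same gene did not always agree. Among the 10 genes with several probes, r was between 0.623 and 0.818 for Cyp3a25, 0.305 and 0.933 for Cyp2c40, and 0.415 and 0.954 for Cyp3a41a. It was 0.635 for Cyp2b9, 0.478 for Cyp2b13, 0.285 for Cyp4b1, 0.262 for Cyp2b19, 0.204 for Cyp21a1 and -0.0897 for Cyp2j11. Each gene is given here by its most variable probe.

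Relations of the P450 genes to the state of the liver were measured as slopes of each probe on standardized scores, with the 4 blocks in the fit (limma, Benjamini-Hochberg adjustment over all probes at 0.05). A slope is in log10 units per SD of the score. A rise or fall with a score is a relation across mice and not an effect of it.

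The fat storage score was the mean of the lipid droplet and uptake genes Cidea, Fitm1, Pparg, Plin4 and Cd36. With it 12 of 70 member probes rose, against 20% of all probes, and 31 fell, against 33.3%. The shares that fell were 16 of 32 in family 2 and 8 of 12 in other families, and 1 of 9 in family 3. Cyp7b1 fell most, by 0.153 ± 0.0107 (SE) or 1.42-fold per SD, in all 4 blocks (adjusted p = 4.66e-33). Cyp2c40 fell by 0.120 ± 0.00856 (adjusted p = 4.33e-32), Cyp2c54 by 0.119 ± 0.0132 and Cyp2c37 by 0.101 ± 0.0104. Of the textbook genes, Cyp1a2 fell by 0.0745 ± 0.0127 and Cyp26a1 by 0.0622 ± 0.00890. In the other direction, Cyp2b13 rose by 0.138 ± 0.0154 (adjusted p = 9.13e-16) and Cyp2b9 by 0.117 ± 0.0160 (adjusted p = 2.85e-11), the latter in 3 of 4 blocks. Cyp2c39 rose by 0.0364 ± 0.0155 and Cyp3a11 by 0.0334 ± 0.0126, each in 3 of 4 blocks. Neither passed with rank-based values (limma adjusted p = 0.107 and 0.0919) or in either number range alone, and without the 2 farthest mice Cyp3a11 did not pass (0.0276).

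The score moved with the first principal component of all probes (r = 0.619, rho = 0.637, permutation p = 1e-05, the smallest possible; 0.530 to 0.708 in the blocks). With that component in the fit 26 member probes rose and 10 fell, against 17.1% and 19.9% of all probes, so the balance of directions turned. Cyp7b1 (-0.0821), Cyp2c40 (-0.0813) and Cyp26a1 (-0.0675) still fell, and Cyp2b13 (0.132), Cyp2b9 (0.112) and Cyp3a11 (0.103) still rose. Cyp2c54, Cyp2c37 and Cyp1a2 no longer passed, at -0.00127, -0.00925 and -0.0373. Markers of other cells moved with the score too: 5 of 5 measured stellate cell markers and 10 of 12 macrophage markers rose, and 4 of 6 hepatocyte markers fell. Their part in the slopes of the P450 genes was not tested.

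The macrophage score was the mean of 12 markers, among them C1qa, Cd68 and Clec4f. With it 6 member probes rose, against 17.3% of all, and 34 fell, against 36%. Cyp2c54 fell by 0.0938 ± 0.0139 (adjusted p = 9.52e-10), Cyp7b1 by 0.0868 ± 0.0130, Cyp2c37 by 0.0707 ± 0.0112 and Cyp2c40 by 0.0696 ± 0.0102, each in all 4 blocks. Cyp2e1 fell by 0.0334 ± 0.00579. Cyp4b1 rose by 0.0548 ± 0.00597 in all 4 blocks (adjusted p = 2.54e-16), and Cyp4f16 by 0.0358 ± 0.00331. Cyp2b13 and Cyp2b9 rose by 0.0539 ± 0.0171 and 0.0502 ± 0.0171, in 2 of 4 blocks each, but not with rank-based values (0.0210 and 0.00448) or in early mice alone (0.0260 and 0.0135). This score too moved with the first principal component (r = 0.647, rho = 0.639, permutation p = 1e-05, the smallest possible; 0.561 to 0.708 in the blocks). With the component in the fit, 11 member probes rose and 2 fell, against 9.11% and 12.3% of all probes. Cyp2c54, Cyp2c37 and Cyp7b1 then had slopes of 0.0506, 0.0498 and 0.0343, and Cyp4b1 kept one of 0.0324 (adjusted p = 4.89e-04). Cyp4f16 (0.00344), Cyp2b9 (5.86e-04) and Cyp2b13 (-0.00887) did not pass. In the same score without the component, 4 of 6 hepatocyte markers fell and 5 of 5 stellate cell markers rose.

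Acute phase genes had little relation to P450 genes. The score was the mean of 11 genes such as Saa1, Hp and Orm1. With it 5 member probes rose and 4 fell, against 7.02% and 8.08% of all probes, shares near the background. The exceptions included Cyp3a13, which rose by 0.0779 ± 0.0134 or 1.20-fold per SD in all 4 blocks (adjusted p = 1.05e-06) and by 0.0667 with the first principal component in the fit. Cyp39a1 rose by 0.0451 ± 0.0163 (adjusted p = 0.0418), but not with that component (0.0307) or in either number range alone. Cyp4b1 fell by 0.0277 ± 0.00656 (adjusted p = 6.96e-04) and its pseudogene by 0.0172 ± 0.00418, and in late mice alone neither passed (-0.0128 and -0.00824). Cyp1a2 (-0.0208 ± 0.0134, adjusted p = 0.328) and Cyp3a11 (-0.00409 ± 0.0128, adjusted p = 0.879) did not pass.

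Many P450 genes are known to be expressed around the central vein. The pericentral score was the mean of 9 genes such as Glul, Oat and Axin2, without P450 genes, and its genes hardly moved together (median r between them 0.0921), so it is a weak measure. With it 23 member probes rose, against 21.9% of all probes, and 5 fell, against 18.9%. Cyp1a2 rose most, by 0.0739 ± 0.0128 (adjusted p = 1.04e-06), and Cyp7b1 (0.0454 ± 0.0136), Cyp2c54 (0.0417 ± 0.0147), Cyp26b1 (0.0392 ± 0.00880) and Cyp2e1 (0.0372 ± 0.00572) rose as well, each in all 4 blocks. Cyp3a41a (-0.0566 ± 0.0165), Cyp39a1 (-0.0558 ± 0.0162) and Cyp3a11 (-0.0343 ± 0.0126) fell in all 4 blocks, and Cyp1b1 (-0.0142 ± 0.00379) in 3. Another probe of Cyp3a41a rose (0.0165 ± 0.00659). The first principal component did not change these directions, and 3 of 6 hepatocyte markers rose with the score. In late mice alone 8 member probes rose and 1 fell, against 4.72% and 4.54% of all probes, and Cyp1a2, Cyp7b1, Cyp2c54, Cyp26b1, Cyp3a41a, Cyp3a11 and Cyp1b1 did not pass. Early mice alone gave no call for Cyp2c54, Cyp39a1 and Cyp3a11 (limma adjusted p = 0.152, 0.0910 and 0.0576). Cyp3a11 did not pass with rank-based values either (limma adjusted p = 0.127).

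Nr1i3 encodes CAR, a nuclear receptor known to induce Cyp2b and Cyp2c genes. With its own value 35 of 70 member probes rose, against 27.3% of all, and 2 fell, against 16.6%. In family 2 it was 18 of 32 that rose and none that fell, and in family 4 it was 7 of 14 that rose and 1 that fell. Cyp2c54 rose by 0.122 ± 0.0131 or 1.32-fold per SD (adjusted p = 1.42e-15), Cyp1a2 by 0.107 ± 0.0119 (adjusted p = 1.00e-14), Cyp2c37 by 0.0995 ± 0.0104 and Cyp2c38 by 0.0606 ± 0.00814, each in all 4 blocks. Cyp2e1 rose by 0.0543 ± 0.00524. Cyp2b9 barely passed (0.0401 ± 0.0172, adjusted p = 0.0466). Cyp4f16 fell by 0.0204 ± 0.00372 and Cyp1b1 by 0.0171 ± 0.00375. With the first principal component in the fit 20 rose and 4 fell, against 21.7% and 16.2% of all probes, and Cyp1a2 (0.0906), Cyp2c54 (0.0720), Cyp2c37 (0.0591) and Cyp2c38 (0.0557) were still called. Cyp4f16 was not (-0.00539). In late mice alone 13 rose and none fell, against 7.11% and 5.81% of all probes, and Cyp4f16 (-0.00966) and Cyp1b1 (-0.00573) did not pass. Of other genes, 9 of 12 macrophage markers fell with Nr1i3 and 4 of 6 hepatocyte markers rose. Alas1, the first enzyme of haem synthesis, rose by 0.0448 ± 0.0101, as did Alad (0.0344 ± 0.00833).

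Ppara encodes a fatty acid-sensing receptor known for the Cyp4a genes. With it 30 member probes rose, against 18.4% of all probes, and 2 fell, against 16.8%. The share of a family's own probes that rose was highest in family 3, at 8 of 9 probes for 5 genes. It was 13 of 32 in family 2 and 4 of 14 in family 4, and the difference between families was not tested. Cyp4a14 was set aside and Cyp4a10 had no named probe, so neither counts in family 4. Cyp3a41a rose by 0.0887 ± 0.0160 or 1.23-fold per SD (adjusted p = 1.26e-06), Cyp2c54 by 0.0754 ± 0.0142, Cyp2c37 by 0.0612 ± 0.0114 and Cyp3a11 by 0.0604 ± 0.0123, each in all 4 blocks. Cyp3a25 rose by 0.0558 ± 0.0108 and Cyp2e1 by 0.0357 ± 0.00575. Within Cyp4a, Cyp4a12b rose by 0.0282 ± 0.00708 and Cyp4a31 by 0.0117 ± 0.00336. Cyp4b1 fell by 0.0165 ± 0.00669 and Cyp4f16 by 0.0111 ± 0.00385. With the first principal component in the fit 18 rose and 8 fell, against 14.0% and 16.1% of all probes, and Cyp3a41a (0.0730), Cyp3a11 (0.0507) and Cyp3a25 (0.0402) were still called. Cyp2c54 (0.0218), Cyp2c37 (0.0178), Cyp4b1 (-3.77e-04) and Cyp4f16 (0.00455) were not. In late mice alone Cyp3a11 did not pass (0.0311), and Cyp4b1 passed in neither number range alone. Nr1i3 and Ppara were themselves related (r = 0.339, rho = 0.282, permutation p = 1e-05, the smallest possible; 0.0596 to 0.477 in the blocks; 0.312 without the 2 farthest mice), so their slopes are not independent. Alas1 rose by 0.0544 ± 0.00997 with Ppara, and 7 of 12 macrophage markers fell.

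**Figure D5:**
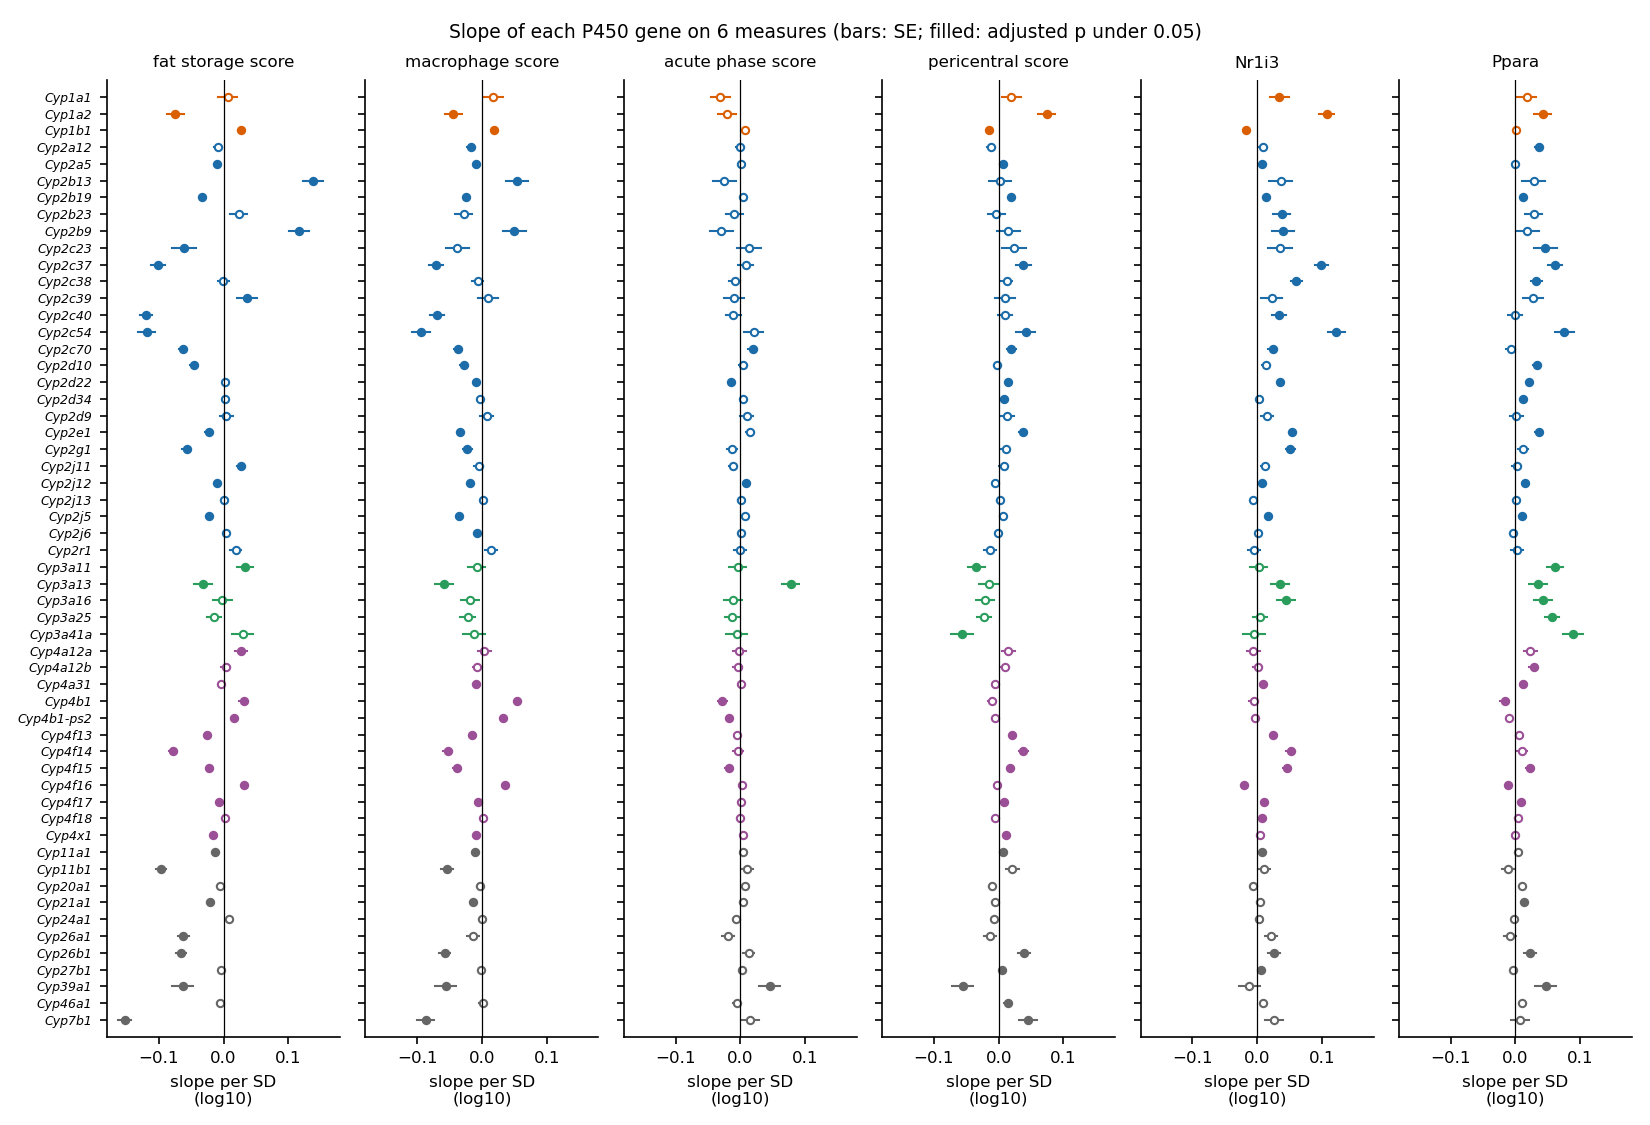
Slope of each of 56 P450 genes on 6 measures in log10 units per SD, with the SE as bars, coloured by family from family 1 at the top to other families at the bottom, filled where the limma adjusted p is under 0.05. Cyp7b1 (-0.153) and Cyp2b13 (0.138) mark the ends for fat storage, the acute phase panel is mostly open points, and for Ppara the 5 genes of family 3 are all filled and to the right of 0.

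The title number is the only label that differs between mice. Values of Cyp2f2 were missing in 78 mice, as many as the late block of upper Eif2s3y holds. Which mice lacked them is not given here. How the arrays were processed is not given in the sources used here, so title number and processing before deposit cannot be told apart. Between the ranges, with the Eif2s3y cluster as covariate, 42 of 70 member probes were higher in late mice, against 33.9% of all probes, and 13 were lower, against 30.6%. Cyp39a1 was higher by 0.222 ± 0.0330 or 1.67-fold (limma adjusted p = 6.49e-10), Cyp2c54 by 0.213 ± 0.0299, Cyp3a13 by 0.210 ± 0.0282 and Cyp2c37 by 0.197 ± 0.0239. The median of Cyp2c54 was -0.149 in early and 0.164 in late mice, and 90.9% of late mice lay above the early median, although the ranges overlap. Cyp2d9 was lower by 0.0864 ± 0.0200, and Cyp26a1 (-0.0604 ± 0.0193), Cyp2j11 (-0.0569 ± 0.0132) and Cyp2r1, a vitamin D 25-hydroxylase (-0.0512 ± 0.0181), were lower as well. In the lower Eif2s3y cluster alone the differences of Cyp2d9 and Cyp26a1 were -0.176 and -0.106. In the upper one alone they were -0.00719 and -0.0199 and did not pass, and whether the clusters differ was not tested. Cyp2r1 passed in neither cluster alone (-0.0581 and -0.0452). Probes of Cyp3a41a disagreed, at 0.147, -0.0656 and -0.0683. Family 1 showed no called difference. In the same comparison 4 of 5 fat storage genes and 7 of 12 macrophage markers were lower and 8 of 11 acute phase genes were higher, and their part in the difference was not tested.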

How the data were processed

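The authors deposited 1 table of log values from 2-colour arrays, 1 array for each of 302 livers, with 23562 probes. The deposited values were read as log10 ratios of mouse over pool, a base and direction that the authors' labels do not state, and how they were corrected and normalized, and for which build the array was designed, is not given in the sources used here. RNA was purified on spin columns and labelled after aminoallyl amplification, per the labels' protocols. Deposited values are limited to -2 and 2, and no member value lies at a limit. Precision is limited by how many arrays there are, and read depth does not apply. Each mouse is 1 sample, and no repeat arrays were used.

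Probe names came from the platform annotation, updated through gene identifiers: a single symbol was found for 13655 probes, several for 48, and 9859 are absent from it. Symbols were set against a RefSeq gene table of GRCm38.p6, which also gave the neighbours, and 12652 probes matched. The members, gene lists, promoters, motifs and tests were chosen with earlier results of these data known.

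Values were centred on 4 blocks. SDs carry 95% intervals from 1000 redraws of mice within blocks. Slopes were fitted with limma 3.58.1 in R 4.3.3 over the 23512 probes with values in at least 90% of mice, leaving out those that make the score, as two-sided tests at an adjusted p (Benjamini-Hochberg) of 0.05. A gene was named by family (the 4 largest and the smallest SD), by separate states, by pairs (the 8 highest and 4 lowest r), by slope (up to 4 each way per comparison), as a textbook gene or as a called regulator or haem gene. A few members beyond the rule were chosen after their values were seen. Permutations (100000, two-sided) were made with SciPy 1.17.1 and NumPy 2.4.6, promoters were aligned with Biopython 1.88, and the scripts were tested on simulated data. Relations to Por, Ahr and Nr1i2 were planned but these genes, like Cyp4a10, Cyp7a1 and Cyp27a1, were not analysed here for want of a named probe in the table used. Alternatives were another spread measure or threshold, no blocks, the first principal component, rank-based values, each number range, each Eif2s3y cluster and leaving out the 2 farthest mice. The correlations within the states of a gene were added after seeing the data.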

Additional observations from a re-analysis of the deposited data

How the results depend on the processing

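No paired analysis was possible because the labels give a single group, and 302 mice with 1 array each leave no replicate to take out. With 3 times the median SD as the threshold 15 member probes varied widely in place of 27. With means over 4 SDs apart 0 of 70 had separate states, and with no block removed 15 had them. The share of all probes under these settings and under the higher threshold was not computed. The median r within families 1 to 4 fell to 0.0432 once the first principal component was removed. With that component in the fit, 13 member probes were called for the macrophage score and 24 for Nr1i3, in place of 40 and 37. In late mice alone 2 were called for the acute phase score, 9 for the pericentral score, 13 for Nr1i3 and 17 for Ppara, in place of 9, 28, 37 and 32, and in early mice alone 15 for the pericentral score. These ranges hold fewer mice, and calls over all probes fell too. In late mice the shares that rose and fell were 4.17% and 3.10% for the acute phase score, 4.72% and 4.54% for the pericentral score, 7.11% and 5.81% for Nr1i3 and 11.3% and 10.1% for Ppara, and in early mice 18.3% and 16.0% for the pericentral score.

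Slopes of named genes that passed the test were followed through 330 combinations of gene and setting. They kept direction and call in 255, kept direction but lost the call in 64 and turned in 11. Slopes that had not passed stayed so with their direction in 66 of 85, changed sign without passing in 13, passed in the same direction in 4 and passed in the other in 2. With the first principal component in the fit, Cyp2e1 turned to 0.0207 for fat storage. For the macrophage score Cyp2c37 turned to 0.0498, Cyp2c54 to 0.0506, Cyp7b1 to 0.0343, Cyp1a2 to 0.0167, Cyp2e1 to 0.00708, Cyp2c40 to 0.00531 and Cyp2b13 to -0.00887. Cyp7b1 turned to -0.0250 for Nr1i3 and to -0.0445 for Ppara, and Cyp4f16 to 0.00455 for Ppara, as it did in late mice (0.00129). As a slope on the number itself, Cyp2e1 turned to 0.00753. The cause was not tested. The planned slopes on Por, Ahr and Nr1i2 were not run, since no probe with those names was in the table used. How signal over background limits dim probes could not be seen, since only ratios were used.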

Other observations

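Genes that serve the P450 enzymes with haem and electrons were measured beside them, 9 of 16 listed genes in all. With the fat storage score 3 rose and 1 fell (20% and 33.3% of all probes did), with the macrophage score 1 rose and 3 fell (17.3% and 36%), and with Nr1i3 5 rose and 3 fell (27.3% and 16.6%). With Ppara 3 rose and 1 fell (18.4% and 16.8%), with the pericentral score 2 rose and 1 fell (21.9% and 18.9%), and with the acute phase score 1 rose and 1 fell (7.02% and 8.08%). Between the title number ranges 3 were higher and 4 lower in late mice (33.9% and 30.6%). Cpox, the coproporphyrinogen oxidase of haem synthesis, fell by 0.0421 ± 0.00720 per SD of the fat storage score (limma adjusted p = 8.27e-08), while Alas1 rose by 0.0267 ± 0.0103 (limma adjusted p = 0.0217). Hmox1, which degrades haem, rose by 0.0693 ± 0.0212 with the acute phase score (limma adjusted p = 0.0122) and fell by 0.0581 ± 0.0213 with Nr1i3 (limma adjusted p = 0.0186).

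Of 19 measured regulators, 8 fell and 2 rose with the fat storage score (33.3% and 20% of all probes did). Foxa2 fell by 0.0416 ± 0.00801 and Foxa1 by 0.0384 ± 0.00761, and Nfe2l2, the regulator of the oxidative stress response, rose by 0.0355 ± 0.00579. With the macrophage score 8 fell and 1 rose (36% and 17.3% of all probes did). The 1 that rose was Nfe2l2 again, by 0.0424 ± 0.00564 (limma adjusted p = 1.37e-11). With Ppara 9 of 18 regulators rose and 1 fell (18.4% and 16.8% of all probes did). Among those that rose was Nr1i3, by 0.0360 ± 0.00578. Between the title number ranges Cebpb was lower in late mice by 0.0812 ± 0.0108 and Nr1i3 was higher by 0.0614 ± 0.0126.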
